A study of Mus musculus with 3 samples.

Results

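Genes of the EGF family in mouse flexor tendon were examined across the cell classes of 3 single-cell libraries. The genes were the ligands Hbegf (ENSMUSG00000024486), Ereg (ENSMUSG00000029377), Areg (ENSMUSG00000029378), Tgfa (ENSMUSG00000029999) and Btc (ENSMUSG00000082361) and the receptors Egfr (ENSMUSG00000020122), Erbb2 (ENSMUSG00000062312) and Erbb3 (ENSMUSG00000018166). They are 8 of the 32285 genes in the count files, taken by symbol, and all 8 had counts in every library. The set was chosen by family and selected on measured values known in advance, namely the low Ereg level of tenocytes from 21 M B6 tendons, and with the knowledge that the toxin receptor of the mouse model is itself a version of Hbegf. Those levels are therefore given as description. The family comes from levels in 21 M B6 tenocytes, so no count of its members there is read as a result.

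The study pooled 16 flexor digitorum longus (FDL) tendons of both sexes for each library and sequenced single cells by their 3′ ends. Libraries named 6 M DTR came from mice with Scx-Cre and 1 copy of the DTR allele (Scx-Cre+; DTR F/+), in which cells that have used the Scleraxis driver carry the diphtheria toxin receptor. Their controls, 6 M WT, were littermates with the allele and without Cre (Scx-Cre-; DTR F/+), and both groups received 5 daily injections of diphtheria toxin (DT). GEO's labels give both groups an age of 3 months, the age at DT, and harvest was at 6 months. The 21 M B6 library came from 21-month-old C57BL/6J mice (genotype C57/Bl6) with no treatment and no DTR allele, so age, allele and DT cannot be told apart in a comparison with it. Digestion lasted 120 min for 6 M WT and 90 min for the other libraries, which cannot be told apart from group either. The DTR allele encodes a primate HBEGF. Mouse Hbegf was the feature counted, and whether transgene reads can be counted on it was not tested.

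EGF family ligands are made as membrane-anchored precursors, and metalloproteases such as ADAM17 cut them free to act on nearby cells. HB-EGF, epiregulin, amphiregulin, TGFα and betacellulin all bind the EGF receptor, whereas ERBB3 answers to neuregulins and signals mainly in a pair with ERBB2, which has no known ligand of its own. In fibroblasts, receptor signalling runs through the RAS and ERK kinases to immediate early transcription factors and to inhibitors that damp the signal, while in Schwann cells the ERBB2 and ERBB3 pair is needed for their survival and for myelination.

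After filtering, 8357 cells of 6 M WT, 6554 of 6 M DTR and 4798 of 21 M B6 remained, with medians of 12328 to 13008 UMIs per cell. The share of barcodes with over 10% mitochondrial counts was 27.6% in 6 M WT, 43.1% for 6 M DTR and 56.5% for 21 M B6. Summed erythroid markers in tenocytes were 1135 CPM in 6 M WT, 4697 for 6 M DTR and 1016 for 21 M B6. Only 13 to 15 kept barcodes were shared by any pair of libraries. Each cell was put in the class for which it had the largest share of a fixed list of markers. The leading genes of the 7 classes described held no marker of another class. The tenocyte class, marked by Tnmd, Fmod and Scx, held 5536 cells of 6 M WT, 2950 of 6 M DTR and 985 of 21 M B6. Epitenon cells, marked by genes such as Pi16 and Krtdap, numbered 926, 844 and 2203 in the same order, and macrophages 563, 1123 and 503. With 1 library per group there is no replicate, and no p-value is given. Each interval is a 95% interval of counting error alone, which leaves out the spread between mice and between the cells of a library. It treats each UMI as independent, so it is too narrow where few cells hold most counts of a gene. Levels are given as CPM, the UMIs of a gene relative to all UMIs summed over a class in a library. A 3′ library counts 1 tag per molecule, so transcript length does not enter, and levels are still compared within a gene and not between genes.

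The ligands were highest in different classes, while the level of Egfr was highest in stromal classes and that of Erbb3 in Schwann cells. Among the 7 classes, Ereg was highest in tenocytes in each library, Areg in macrophages, and Btc in Schwann cells. In 21 M B6 the cells of no class had more Ereg, at 49.1 CPM against 39.4 in tenocytes. Hbegf was highest in endothelial and Schwann cells and low in T cells alone. Tgfa was low throughout, with 8.94 to 13.5 CPM in endothelial cells and at most 5.16 CPM in tenocytes. Among the relatives that were not members, Erbb4 had 1 UMI over the 7 classes of the 3 libraries, and Egf, the prototype ligand, was at most at 2.29 CPM, from 1 count in Schwann cells.

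**Figure D1:**
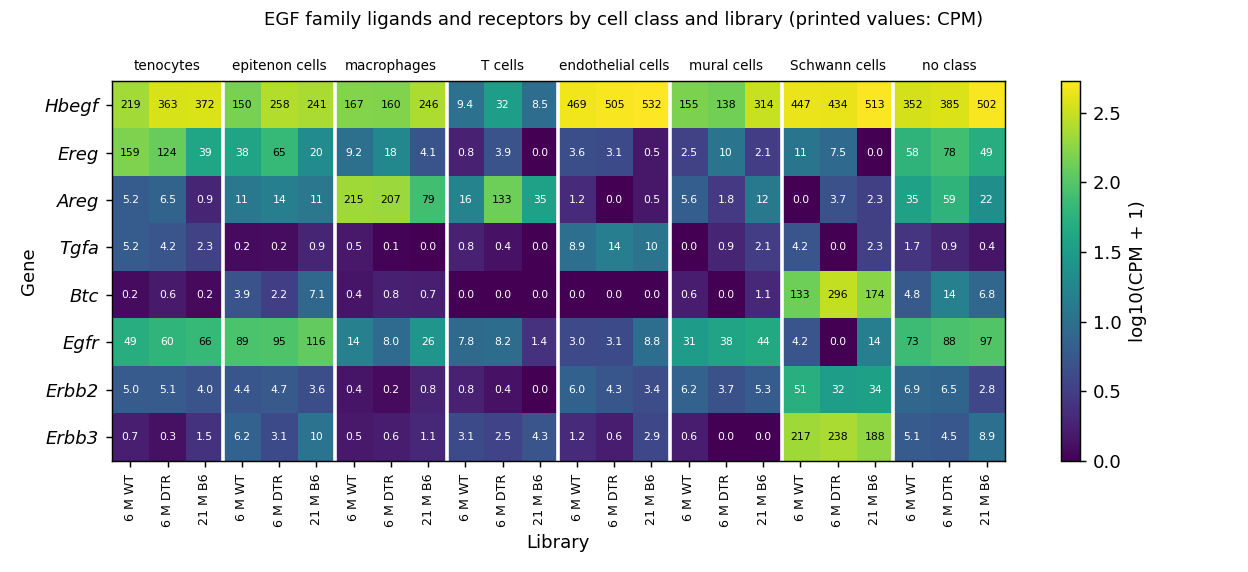
Heat map of the level of each of the 8 genes (rows, CPM printed in each cell, colour on a log10(CPM + 1) scale) in 7 marker-gated classes and the cells of no class, with 1 column per library. Hbegf is bright in every class but T cells, and Btc, Erbb2 and Erbb3 stand out in Schwann cells.

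Ereg, Areg and Btc lie next to each other on chromosome 5 in the RefSeq gene order, with Epgn on the far side of Ereg, and yet each was highest in another class. The promoter windows of Areg and Btc are shown because these neighbours were highest in different classes. They run from 250 bases before to 50 bases after the RefSeq transcription start in build GRCm38.p6, at chr5:91139349-91139648 on the plus strand for Areg and chr5:91402945-91403244 on the minus strand for Btc. Capitals mark matches on either strand to the CRE (TGACGTCA), the AP-1 site (TGACTCA), the TATA box (TATAAA), the GC box (GGGCGG) and the CCAAT box (CCAAT).
Areg: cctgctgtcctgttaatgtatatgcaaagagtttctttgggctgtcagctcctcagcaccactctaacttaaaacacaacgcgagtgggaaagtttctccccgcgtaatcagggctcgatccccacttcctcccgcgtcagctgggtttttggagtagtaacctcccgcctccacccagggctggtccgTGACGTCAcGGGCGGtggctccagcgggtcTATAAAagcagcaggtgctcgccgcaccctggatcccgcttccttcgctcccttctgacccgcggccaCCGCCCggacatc
Btc: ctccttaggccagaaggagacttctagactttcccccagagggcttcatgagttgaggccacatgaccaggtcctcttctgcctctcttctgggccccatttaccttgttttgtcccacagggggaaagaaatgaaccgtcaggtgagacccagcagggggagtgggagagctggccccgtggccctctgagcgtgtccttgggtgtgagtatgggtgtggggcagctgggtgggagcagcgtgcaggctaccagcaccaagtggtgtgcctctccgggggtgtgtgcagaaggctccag
The Areg window held a CRE at position -61 and a TATA box at -31 from the start site, with a GC box at -52 and another, on the opposite strand, at 38. The Btc window held none of the 5 motifs. Among 32851 promoter windows of the same length, 1.79% held the CRE, 5.20% the AP-1 site, 13.6% the TATA box, 35.7% the GC box and 37.4% the CCAAT box. Of the 8 genes, 5 were in the promoter table, and the windows of Tgfa, Egfr and Erbb2 held GC or CCAAT boxes and neither a CRE nor a TATA box. A match describes the letters of the window and shows no binding.

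Ereg, which encodes epiregulin, was a tenocyte gene in the 6 M libraries and was far lower in 21 M B6. In tenocytes its level was 159 CPM in 6 M WT (156 to 162), 124 for 6 M DTR (120 to 127) and 39.4 for 21 M B6 (35.9 to 43.1). The intervals do not overlap, and 21 M B6 was lowest. The ratio to 6 M WT in tenocytes was 0.248 for 21 M B6 (0.226 to 0.272) and 0.78 for 6 M DTR (0.754 to 0.806). The median gene of 21 M B6 tenocytes lay 0.25 below 6 M WT on the log2 scale, and relative to it Ereg was lower by a log2 difference of -1.76, against -2.01 in plain CPM. Across the 9253 genes with at least 5 CPM in 1 of this pair of libraries, 2.79% were at least 2-fold lower and 3.47% at least 2-fold higher. Of the 6 family genes with at least 5 CPM in 1 of these libraries, 3 were at least 2-fold lower (Ereg, Areg and Tgfa) and 0 higher, a count that includes the gene for which the family was chosen. Areg and Tgfa lay just above that limit, at 5.20 and 5.16 CPM in 6 M WT. Their ratio had an interval below 1 in 3 and 1 of 6 tenocyte clusters.

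Ereg was concentrated in few cells. With every cell thinned to 2000 UMIs, 11.8% of tenocytes in 6 M WT, 11.1% for 6 M DTR and 4.16% for 21 M B6 had an Ereg UMI. The tenth of tenocytes with the most Ereg counts held 83.8% of them in 6 M WT, 79.5% for 6 M DTR and 97.9% for 21 M B6. This share rises as counts fall, and 21 M B6 had 472 in 985 cells, so the libraries are not ranked by it. A single cell reached 109, 87 and 36 UMIs in the same order. As a level for free RNA, T cells had 0.781 CPM of Ereg in 6 M WT, 3.93 for 6 M DTR and no UMI for 21 M B6, where 3 counts would be 4.26 CPM. The tenocyte level was thus well above that of T cells in each library. Among thinned 6 M WT tenocytes, an Egfr UMI was found in 11.2% of cells with Ereg and 8.68% of cells without, and an Hbegf UMI in nearly equal shares.

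When tenocytes were split into clusters built without the 8 genes, the lower Ereg level of 21 M B6 was found in each of 6 clusters with at least 50 cells per library, whereas that of 6 M DTR was found in 0 of them. Clusters are named here by their leading genes. None of the 6 had a tenocyte marker among its 10 leading genes, and 94.7% to 99.7% of their cells were gated as tenocytes. In the cluster led by Saa2, Adig and Saa1, Ereg was at 207 CPM in 6 M WT, 254 for 6 M DTR and 54.6 for 21 M B6. Another cluster, with Nos2, S100g and Ereg itself among its leading genes, had 229.7, 286 and 46.4 CPM. One more, led by Kera and Mmp3 and with the satellite cell marker Chodl among its leading genes, had 218, 314 and 58.7 CPM. These 3 clusters were the high ones, and 6 M DTR was above 6 M WT in each.

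Lower levels were found in the remaining 3 tenocyte clusters. Cells led by Mstn and Edil3 had 74.1 CPM of Ereg in 6 M WT, 76.4 for 6 M DTR and 9.64 for 21 M B6. Those led by Coch and Hp had 41.7, 82.2 and 14.7 CPM, and those led by Npy, Cytl1 and Slurp1 had 53.4, 59.8 and 40.1 CPM. Over the 6 clusters the ratio of 6 M DTR to 6 M WT ran from 1.03 to 1.97, with an interval above 1 in 4 and below 1 in 0, and the ratio of 21 M B6 to 6 M WT ran from 0.13 to 0.749, with an interval below 1 in all 6. The Mstn and Edil3 cluster held 1496 cells of 6 M DTR, 159 of 6 M WT and 50 of 21 M B6, and the Saa2 cluster 82, 1889 and 89, so the pooled tenocytes of each library weighted high and low clusters differently. A cluster made up mostly of 1 library may be that library and not a type of cell. The ratio of 0.78 in 6 M DTR tenocytes taken as a whole was thus not seen inside any of these clusters. It was kept in most tenocyte subsets gated by markers. With the Slurp1, Serpinb7 and Vcan markers the ratio was 0.734 (0.686 to 0.785), and without them 0.807 (0.776 to 0.839). Acute-phase tenocytes, gated by Saa genes and Lcn2, had 1.01 (0.934 to 1.10), and the other tenocytes 0.859 (0.827 to 0.892). The result therefore depends on how tenocytes are divided.

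**Figure D2:**
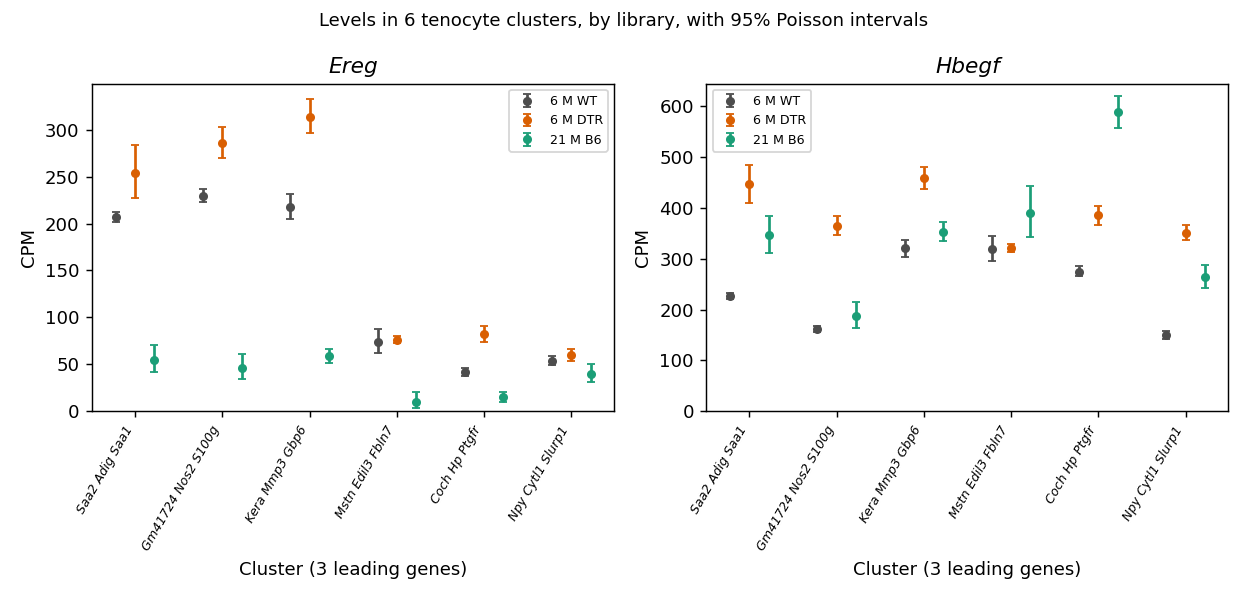
Level in CPM (linear axis from 0) of Ereg and Hbegf in 6 tenocyte clusters, named by 3 leading genes each, with points for the 3 libraries and bars for 95% Poisson intervals of counting error. Ereg in 21 M B6 lies below both 6 M libraries in each cluster, while 6 M DTR lies at or above 6 M WT.

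The sexes were pooled in each library and could be separated by the expression of sex-linked genes. Female tenocytes had an Ereg level of 185 CPM in 6 M WT, 140 for 6 M DTR and 44.7 for 21 M B6, and male tenocytes 122, 119 and 27.3 CPM. The ratio of 21 M B6 to 6 M WT was 0.242 in female and 0.223 in male cells. For 6 M DTR it was 0.758 in female cells (0.721 to 0.796) and 0.975 in male cells (0.918 to 1.04), so the interval of male cells held 1. Female cells made up 5104 of the sexed cells of 6 M WT against 1991 male, and 2145 against 3101 in 6 M DTR.

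Ereg was higher for 6 M DTR than for 6 M WT in the gated classes of epitenon cells, macrophages and mural cells. In endothelial and Schwann cells, with at most 6 counts in a library, the intervals of the ratio held 1. Epitenon cells had 37.7 CPM in 6 M WT, 65.4 for 6 M DTR and 19.8 for 21 M B6, ratios of 1.73 (1.56 to 1.93) and 0.524 (0.468 to 0.587). The higher level of 6 M DTR was found in male epitenon cells, 21.6 against 68.6 CPM, and not in female ones, 44.7 against 36.1 CPM. The lower level of 21 M B6 was not found in male epitenon cells, at 27.3 CPM, nor in the epitenon cluster led by Il1rl1 and Sfrp4, where 6 M WT had 29.3 CPM and 21 M B6 had 49.3, a ratio of 1.68 (1.33 to 2.14). The ratio was 0.944 (0.686 to 1.32) in the cluster led by Ccl11 and Ccl8. It was below 1 in those led by Ltbp2 and Uchl1 (0.310) and by Ptx3 and C4b (0.825). For 6 M DTR the ratios in these clusters were 4.11 (Il1rl1), 3.30 (Ltbp2), 2.55 (Ptx3) and 0.625 (Ccl11, 0.353 to 1.06). Macrophages had 9.21, 17.6 and 4.06 CPM, with ratios of 1.91 (1.498 to 2.46) and 0.441 (0.281 to 0.674). The ratio of 6 M DTR was 1.74 (1.32 to 2.30) in the cluster led by Il1a and Tnf and 0.646 (0.456 to 0.915) in the cluster led by H2-Aa and H2-Eb1. It was 1.19 (0.972 to 1.46) in the macrophage cluster of the Seurat integration and 1.17 when cells were thinned. MHC class II macrophages had a ratio of 1.15 (0.805 to 1.69) and the other macrophages 1.86 (1.32 to 2.64). By sex it was 1.84 (1.28 to 2.66) in female and 2.23 (1.36 to 3.88) in male macrophages. The higher level of 6 M DTR thus held in some of these choices and not in others. The 21 M B6 macrophage ratio rests on 30 counts. It was 0.705 (0.422 to 1.15) in female cells and 0.127 (0.0142 to 0.529) in male cells, from 2 counts. In the cluster led by Retnla it was 0.932 (0.134 to 10.3), and 0.202 (0.103 to 0.368) in the one led by H2-Aa. It was 0.260 (0.130 to 0.490) with MHC class II and 0.493 (0.262 to 0.880) without. The Il1a cluster had no Ereg UMI in 21 M B6. Summed tenocyte markers in macrophages were 529 CPM in 6 M WT, 266 for 6 M DTR and 221 for 21 M B6, and the part of free tenocyte RNA in the macrophage Ereg level was not tested. Mural cells had 2.49 CPM in 6 M WT and 10.2 in 6 M DTR, from 4 and 22 counts. The higher level was not found in the mural cluster led by Rgs5 and Gm13889. It had 52.2 CPM in 6 M WT and 37.6 in 6 M DTR, a ratio of 0.719 (0.475 to 1.10).

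Hbegf, whose product HB-EGF is also the cell-surface receptor through which diphtheria toxin enters human cells, was higher in tenocytes of both other libraries than in 6 M WT. Its tenocyte level was 219 CPM in 6 M WT (216 to 223), 363 for 6 M DTR (357 to 369) and 372 for 21 M B6 (361 to 383). The last 2 overlap and lie well above the first. The ratio to 6 M WT was 1.65 for 6 M DTR (1.62 to 1.69) and 1.69 for 21 M B6 (1.64 to 1.75), and that of 21 M B6 to 6 M DTR was 1.02 (0.99 to 1.06). The 21 M B6 mice have no DTR allele, and in 6 M WT the allele is held silent by a stop cassette in the absence of Cre. Transgene reads would thus be possible in 6 M DTR, where their part in the Hbegf level was not tested. The 6 M DTR tenocytes are those that remained after depletion, and whether they carry the receptor was not tested either. Thinned to 2000 UMIs, 24.2% of tenocytes in 6 M WT, 40.2% for 6 M DTR and 35.6% for 21 M B6 had an Hbegf UMI, against 0.813%, 3.76% and 0% of T cells.

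The higher Hbegf level held in most tenocyte clusters. In 6 M DTR the ratio to 6 M WT was above 1 beyond its interval in 5 of 6 clusters and reached 2.34 in the cluster led by Npy, Cytl1 and Slurp1, with 150 CPM in 6 M WT and 352 in 6 M DTR. The exception was the cluster led by Mstn and Edil3, which held more 6 M DTR cells than any other, with 319.7 and 322 CPM. For 21 M B6 all 6 ratios were above 1 beyond their intervals, from 1.10 in the Kera and Mmp3 cluster to 2.14 in the Coch and Hp cluster (275 CPM in 6 M WT and 589 in 21 M B6). By sex, the ratio of 6 M DTR to 6 M WT was 1.803 in female and 1.69 in male tenocytes, and that of 21 M B6 was 1.77 and 1.63.

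Among the 7 classes the order of Hbegf levels was led by endothelial and Schwann cells in every library. Endothelial cells had 469, 505 and 532 CPM in the order 6 M WT, then 6 M DTR, then 21 M B6, and Schwann cells 447, 434 and 513 CPM. The intervals of these neighbours overlapped within each library. Mural cells had 155 and 138 CPM in the 6 M libraries and 314 in 21 M B6, a ratio of 2.03 (1.71 to 2.41) for the last. Summed endothelial markers in mural cells were 421, 204 and 1595 CPM, and 29, 26 and 41 mural cells passed the gate of another class as well. Without cells that passed 2 gates the ratio of 21 M B6 was 1.24, and the part of endothelial RNA in the rest was not tested. Macrophages had 167, 160 and 246 CPM, with a ratio of 0.961 (0.902 to 1.02) for 6 M DTR and 1.48 (1.38 to 1.58) for 21 M B6. T cells were lowest, at 9.38, 31.8 and 8.52 CPM.

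The higher Hbegf level of 21 M B6 macrophages was found in 1 of 3 clusters that held macrophages, none of which had a macrophage marker among its 10 leading genes. The cluster led by Retnla and Vsig4, of which 100% of cells passed the macrophage gate, with 159 cells of 6 M WT, 295 of 6 M DTR and 373 of 21 M B6, had the most Hbegf, at 391, 357 and 312 CPM, a ratio of 0.799 (0.737 to 0.866) for 21 M B6. The one led by Il1a and Tnf, of which 96.1% passed it, had 90.3, 79.3 and 127 CPM, a ratio of 1.41 (1.17 to 1.69). A mixed myeloid cluster led by H2-Aa and H2-Eb1, with 52.0% of cells passing the gate and S100a8 and S100a9 of other myeloid cells among its leading genes, had 96.0, 140 and 29.2 CPM, a ratio of 0.304 (0.210 to 0.432). The pooled ratio of 1.48 thus stands beside a larger share of cells in the cluster with the most Hbegf.

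A small cluster led by Clic5, Col22a1 and Bglap2 held by far the highest Hbegf levels. It was made without use of the 8 genes, numbered 85 cells in 6 M WT, 150 for 6 M DTR and 149 for 21 M B6, and was at 2563, 2113 and 3160 CPM. The next highest cluster of any library reached 589 CPM. With 1.02%, 2.29% and 3.11% of the cells, this cluster gave 14.4%, 15.9% and 43.0% of all Hbegf counts of its library. In cells thinned to 2000 UMIs, 75.3%, 54.7% and 77.9% had an Hbegf UMI. The same cells had 219, 240 and 227 CPM of Egfr, above every other cluster in each library, and 86.0, 59.4 and 69.4 CPM of Areg. Ereg there was at 169 CPM in 6 M WT, 198 for 6 M DTR and 2.97 for 21 M B6. Just 50.3% of the cells passed the epitenon gate and no epitenon marker was among the 10 leading genes, so no class name is given to the cluster. The epitenon clusters led by Ltbp2 and Uchl1 and by Ccl11 and Ccl8 had no such marker there either. They are named for the 66.7% and 84.3% of their cells gated as epitenon.

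**Figure D3:**
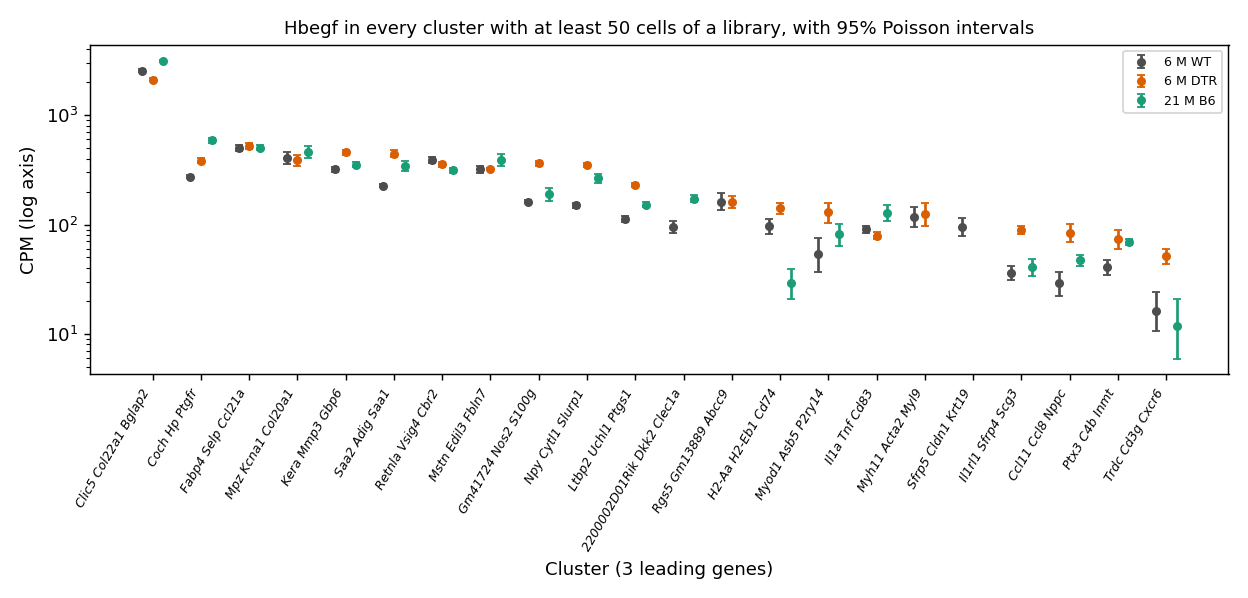
Level of Hbegf (CPM, log axis) in each cluster with at least 50 cells of a library, named by 3 leading genes and ordered by the highest library, with 95% Poisson intervals of counting error. The cluster led by Clic5, Col22a1 and Bglap2 stands above 2000 CPM in each library, and no other cluster passes 589 CPM.

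Because part of that cluster passed the epitenon gate, it weighed on the Hbegf level of epitenon cells. Epitenon cells as a whole had 149.8 CPM in 6 M WT, 258 for 6 M DTR and 241 for 21 M B6, ratios of 1.72 (1.63 to 1.82) and 1.61 (1.54 to 1.69). Without the cells of the cluster the levels were 37.5, 110 and 76.9 CPM, and the ratios were 2.94 (2.66 to 3.25) and 2.05 (1.87 to 2.26). Inside it, epitenon-gated cells had 2163, 2209 and 3011 CPM. The cells of no class owed their level of 352 to 502 CPM in part to the same cluster, where they had 3577, 2091 and 3926 CPM. Without the cluster the Ereg ratio of epitenon cells was 2.34 for 6 M DTR (2.06 to 2.67) and 0.853 for 21 M B6 (0.748 to 0.974).

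**Figure D4:**
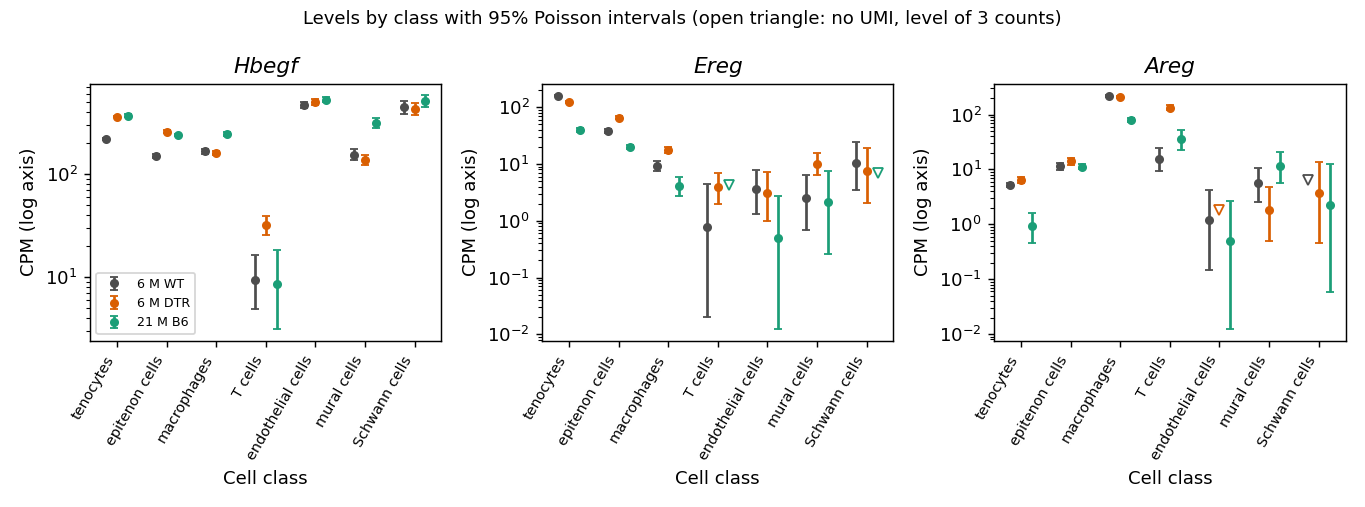
Levels of Hbegf, Ereg and Areg (CPM, log axes) in 7 classes, with points for the 3 libraries and bars for 95% Poisson intervals; an open triangle marks a class with no UMI, placed at the level of 3 counts. Ereg of 21 M B6 is the lowest point in tenocytes, and Areg of 6 M DTR is the highest point in T cells.

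Areg, which encodes amphiregulin, a ligand that immune cells release in tissue repair, was highest in macrophages among the 7 classes. T cells came next, with 133 CPM for 6 M DTR. Their 15.6 CPM for 6 M WT was close to the 11.4 CPM of epitenon cells. The cluster led by Clic5 was above T cells for 6 M WT, at 86.0 CPM. It was also above them for 21 M B6 (69.4 against 35.5), and below them for 6 M DTR (59.4). Macrophages had 215 CPM in 6 M WT (205 to 224), 207 for 6 M DTR (200.1 to 214) and 79.5 for 21 M B6 (73.2 to 86.2). The 6 M libraries overlap and 21 M B6 lies below both, with a ratio to 6 M WT of 0.37 (0.337 to 0.406). Of 4 family genes counted in macrophages, 2 were at least 2-fold lower in 21 M B6 (Ereg and Areg) and 0 higher, against 3.06% of all genes lower, 3.94% higher and 6.99% in either direction. In 6 M DTR 0 of 4 passed 2-fold, against 1.12% of all genes higher, 1.64% lower and 2.76% in either direction. Macrophages with MHC class II had 533, 371 and 138 CPM of Areg, and the other macrophages 154, 117 and 54.9 CPM, so 21 M B6 was lowest in both subsets. Unlike in the pooled class, 6 M DTR was also below 6 M WT in both, at ratios of 0.696 (0.642 to 0.756) and 0.761 (0.702 to 0.824). The MHC class II subset made up 14.7% of macrophages in 6 M WT, 33.4% for 6 M DTR and 26.6% for 21 M B6. With cells thinned, an Areg UMI was found in 16.9%, 16.5% and 11.9% of this subset, in the same order. Among the other macrophages it was found in 9.58%, 7.36% and 7.86%. In each subset the share of cells in 21 M B6 was thus lower than in 6 M WT by less, in relative terms, than the level.

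Clusters that held macrophages differed widely in Areg. One led by Retnla and Vsig4, which held 373 of the 21 M B6 cells, had 45.7 CPM in 6 M WT, 41.8 for 6 M DTR and 55.1 for 21 M B6. Another, led by Il1a and Tnf, had 179, 206 and 44.7 CPM, with 381, 754 and 74 cells. The mixed cluster led by H2-Aa and H2-Eb1 had 579, 580.0 and 223 CPM. The lower Areg level of 21 M B6 was thus found in the last 2 of these clusters, at ratios of 0.25 (0.186 to 0.331) and 0.385 (0.337 to 0.438), while the interval in the first held 1. For 6 M DTR the ratios in the same order of clusters were 0.914 (0.717 to 1.17), 1.15 (1.07 to 1.24) and 1.00 (0.920 to 1.09). The lower 6 M DTR level of the MHC class II split was therefore not found in these clusters.

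In T cells, Areg was at 15.6 CPM in 6 M WT (9.55 to 24.1), 133 for 6 M DTR (120 to 148) and 35.5 for 21 M B6 (23.0 to 52.4). The ratio to 6 M WT was 8.54 (5.45 to 14.1) for 6 M DTR and 2.27 (1.21 to 4.31) for 21 M B6. These rest on 20, 374 and 25 counts in 123, 319 and 67 cells, and the higher level of 21 M B6 was not kept in male cells or at a mitochondrial limit of 5%, which left 9 cells. Summed macrophage markers in T cells were 17.97, 44.2 and 21.3 CPM, and their part in the Areg level was not tested. T cells with γδ receptor genes had 24.6, 160 and 18.6 CPM and the other T cells no UMI in 6 M WT, 88.8 CPM for 6 M DTR and 55.0 for 21 M B6. Areg was low in tenocytes, at 5.20, 6.47 and 0.918 CPM, a ratio of 0.177 (0.0875 to 0.32) in 21 M B6 from 11 counts.

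Btc, which encodes betacellulin, and Erbb3 were highest in Schwann cells. Schwann cells numbered 72 for 6 M WT, 79 for 6 M DTR and 48 for 21 M B6, and their Btc level was 133 CPM (102 to 170), 296 (251 to 346) and 174 (137 to 218). The interval of 6 M DTR lies above both others, at a ratio of 2.23 to 6 M WT (1.65 to 3.03), from 158 and 63 counts, and it was not above 1 in male cells, of which 6 M WT had 8. Erbb3 was at 217, 238 and 188 CPM in the same cells, and Erbb2 at 50.6, 31.8 and 34.3 CPM, and each of these intervals of the ratio to 6 M WT held 1. Erbb3 in epitenon cells was 6.19, 3.12 and 9.93 CPM, ratios of 0.505 (0.343 to 0.732) and 1.60 (1.27 to 2.04). For 21 M B6 the ratio was 0.396 (0.132 to 0.993) in the epitenon cluster led by Il1rl1 and Sfrp4. It was 1.53 (1.02 to 2.33) in the one led by Ltbp2 and Uchl1 and 1.11 (0.813 to 1.55) in the one led by Ptx3 and C4b. The cluster led by Ccl11 and Ccl8 had 0 CPM in 6 M WT and 3.28 in 21 M B6. Erbb2 in tenocytes was 5.05, 5.12 and 4.01 CPM.

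Egfr, the receptor that the 5 ligands share, was highest in epitenon cells and next in tenocytes. Epitenon cells had 88.7 CPM in 6 M WT (84.1 to 93.6), 94.6 for 6 M DTR (89.5 to 99.9) and 116 for 21 M B6 (112 to 120). The ratio to 6 M WT was 1.07 in 6 M DTR (0.987 to 1.15), an interval that holds 1, and 1.31 in 21 M B6 (1.23 to 1.39). In the epitenon cluster led by Ccl11 and Ccl8 the ratio of 21 M B6 was 1.29 (1.14 to 1.47). Its interval held 1 in those led by Il1rl1 and Sfrp4 (1.14), Ltbp2 and Uchl1 (1.13), and Ptx3 and C4b (1.03). For 6 M DTR the ratio was 1.16 (1.02 to 1.33) in the Il1rl1 cluster and 1.42 (1.23 to 1.64) in the Ltbp2 cluster. Its interval held 1 in the Ptx3 cluster (1.07) and the Ccl11 cluster (1.13). By sex, the 6 M DTR ratio was 0.958 (0.858 to 1.07) in female and 1.21 (1.06 to 1.38) in male epitenon cells. Tenocytes had 49.1, 60.4 and 65.7 CPM, ratios of 1.23 (1.17 to 1.30) and 1.34 (1.24 to 1.45). Relative to the median gene of tenocytes these were log2 differences of 0.26 and 0.67. Within the 6 tenocyte clusters the ratio of 21 M B6 ran from 0.867 to 1.38, with an interval above 1 in 0 of them and below 1 in 1, the Kera and Mmp3 cluster. For 6 M DTR it ran from 0.707 to 1.26, above 1 in 2 and below 1 in 1. Mural cells had 31.1, 38.3 and 44.2 CPM.

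Egfr in macrophages was low and, in the pooled class, had the same order of libraries as the epitenon markers in those cells. It was at 14.4 CPM in 6 M WT, 7.97 for 6 M DTR and 25.7 for 21 M B6, while the summed epitenon markers in the same cells were 67.5, 60.3 and 86.6 CPM and the tenocyte markers 529, 266 and 221 CPM. With T cells at 7.81, 8.21 and 1.42 CPM and endothelial cells at 2.98, 3.08 and 8.78, the part of free stromal RNA in the macrophage value was not tested.

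Other genes of the pathway, taken from lists, mostly did not pass 2-fold. In tenocytes of 6 M DTR, 2 of 37 were higher and 1 lower, and 0 of 6 family genes passed, against 2.86% of all genes higher, 1.58% lower and 4.44% in either direction. Dusp6, a phosphatase that inactivates ERK, was at 23.4 CPM against 10.6, a ratio of 2.21. The other genes past 2-fold were Hmga2, higher, and Rhbdf2, a partner of ADAM17, lower. Adam17 itself was at 62.2 CPM in 6 M WT, 44.6 for 6 M DTR and 42.6 for 21 M B6. In tenocytes of 21 M B6, 3 of 36 were higher and 0 lower, against 6.26% of all genes in either direction. They were Myc, at 821 CPM against 285 (ratio 2.89), Spry1, a feedback inhibitor of receptor tyrosine kinases, at 40.3 against 18.4 (ratio 2.20), and Dusp5. Errfi1, which encodes an inhibitor that binds the EGF receptor, was at 893 CPM in 6 M WT, 662 for 6 M DTR and 884 for 21 M B6.

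Immediate early genes, which growth factors and tissue dissociation both induce, were also examined in tenocytes. Of 12 such genes, 1 was at least 2-fold higher for 6 M DTR (Egr2) and 5 for 21 M B6 (Atf3, Egr2, Fos, Nr4a1 and Zfp36), against 2.86% and 3.47% of all genes, and 0 were 2-fold lower. The median log2 ratio over the 12 was 0.62 and 0.95, against 0.04 and -0.25 over all genes. Fos was at 1232 CPM in 6 M WT and 3363 in 21 M B6, and Egr2 at 16.7 CPM in 6 M WT, 38.9 for 6 M DTR and 37.6 for 21 M B6. Digestion was longer, at 120 min, in 6 M WT, where these genes were lower by their median, and lasted 90 min for both others. The part of digestion in the immediate early gene and Hbegf values cannot be told apart from group.

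**Figure D5:**
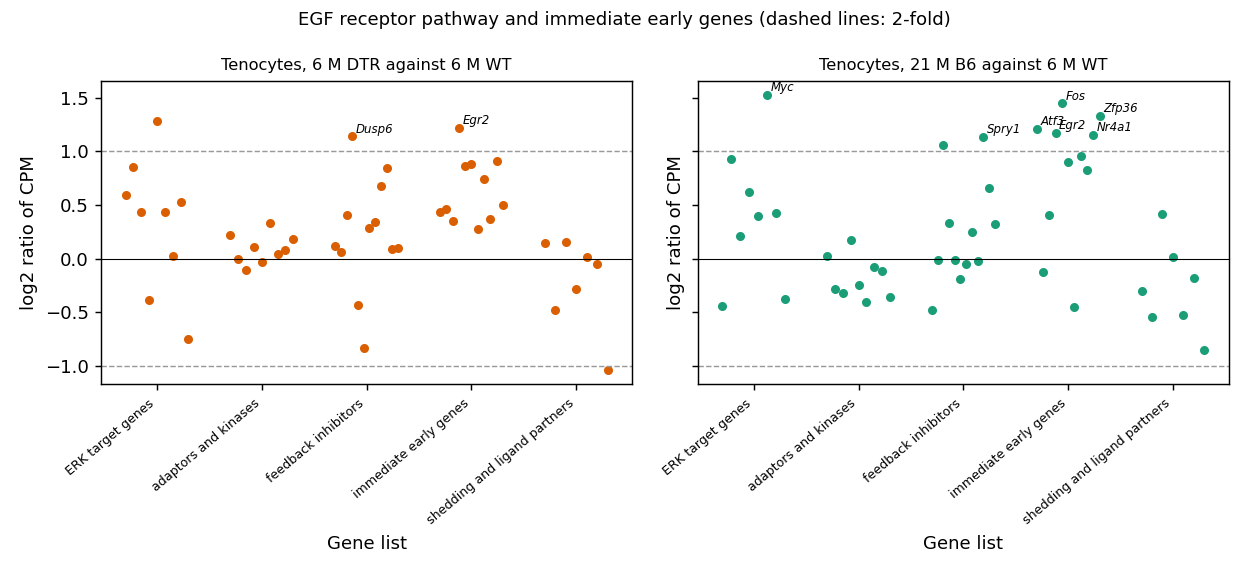
The log2 ratio of CPM to 6 M WT of each gene of 5 lists (points, 1 per gene with at least 5 CPM in 1 library compared, a gene on more than 1 list being drawn once) in tenocytes of 6 M DTR and of 21 M B6, with dashed lines at 2-fold. Immediate early genes lie mostly above 0 in both panels, and the genes labelled are those past 2-fold with at least 20 CPM.

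In epitenon cells 0 of 5 family genes counted for 6 M DTR and 0 of 6 for 21 M B6 passed 2-fold, where 2.12% and 3.65% of all genes did. These split into 0.577% higher and 1.54% lower for 6 M DTR, and 1.88% higher and 1.77% lower for 21 M B6. Pathway genes past 2-fold were 1 of 36 for 6 M DTR (Etv4, lower) and 2 of 36 for 21 M B6, both higher. These were Myc, at 482 CPM against 207, and Phlda1, at 624 against 310.2. Among immediate early genes, Junb and Zfp36 were past 2-fold in 21 M B6, at ratios of 2.22 and 2.43.

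In macrophages, 0 of 33 pathway genes passed 2-fold for 6 M DTR, against 2.76% of all genes, and 2 of 33 were lower and 0 higher for 21 M B6, against 3.06% and 3.94%. They were Spry2 and Cd9, the latter a tetraspanin that associates with the HB-EGF precursor, at 722 CPM against 1870.0 (ratio 0.386). Among 12 immediate early genes in 21 M B6 macrophages, Egr2, Ier2 and Nr4a1 were past 2-fold lower, with ratios of 0.175, 0.49 and 0.473, and the median over 12 was -0.57 against -0.08 for all genes.

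The genes most like each member were sought over 20 profiles of a class in a library, by Pearson's r of log2(CPM + 1) among 9766 genes, as a description. The profiles of a library share its depth and free RNA. Nearest to Hbegf were Wwc2 (r = 0.957), Ltbr (0.956) and App (0.949), and nearest to Ereg were Ergic3 (0.933), Csgalnact2 (0.931) and Slc39a13. Areg was most like Cyba (0.884) and Irf4 (0.878), and Egfr most like Errfi1 (0.892), Hoxa11os (0.879) and C1qtnf2 (0.876).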

How the data were processed

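Single cells of pooled FDL tendons were captured with 10x Chromium 3′ v3 chemistry. The deposited files hold raw UMI counts per gene and cell for 32285 genes; the file headers name Cell Ranger 6.0.1, the submitters' processing notes 2.1.1, and the genome build is not given in the sources used here. Library totals were 148149903 UMIs for 6 M WT, 123918145 for 6 M DTR and 92707026 for 21 M B6. As in the study's methods, barcodes outside 1000 to 5000 genes or above 10% mitochondrial reads were dropped. A cell joined the class with the largest share of its markers detected, of at least 0.5 of the list, among 13 lists; erythroid and muscle fibre gates needed all markers but 1 and applied only where no other class passed. Doublets were kept, and leaving out cells with a Scrublet score above 0.25 was an alternative (215, 117 and 78 cells), the score being set after the automatic threshold had called 10, 117 and 6. Counts were summed per class and library. Intervals are exact Poisson for CPM, exact binomial for shares and exact conditional binomial for ratios, at 95%, and cover counting error only. No test was made, since each group is 1 library. Clusters came from scanpy 1.11.5 (Leiden, resolution 1) and Seurat 5.3.0 (20 dimensions, resolution 0.1), without the 8 genes among the features. edgeR 4.0.16 gave TMM factors. A gene was counted as past 2-fold where 1 of the libraries compared had at least 5 CPM. The text names the 8 genes, list genes past 2-fold with at least 20 CPM, and, chosen after their values were seen, other list genes that make up a small count and Egf, Erbb4, Adam17 and Errfi1, and the 3 most alike genes of 4 members, of which 1 is not reported here. Fold calls and intervals were tested on simulated data. Members, markers and lists were chosen with earlier results of these data known. Promoter sequences are RefSeq's, build GRCm38.p6.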

Additional observations from a re-analysis of the deposited data

Results flagged for a closer look

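Some genes differed from 6 M WT in opposite directions in different classes or sexes, with intervals of counting error on either side of 1. With 1 library per group the difference itself was not tested in any of these cases.

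For Ereg in 6 M DTR the ratio was 0.78 in tenocytes against 1.73 in epitenon cells, 1.91 in macrophages and 4.08 in mural cells. The tenocyte value was not below 1 in any of 6 tenocyte clusters, but was 0.734 and 0.807 in tenocytes with and without the Slurp1 markers. The macrophage value was 0.646 in the cluster led by H2-Aa, 1.19 in the Seurat macrophage cluster and 1.86 in macrophages without MHC class II. The mural value rests on 22 and 4 counts, and was 0.719 (0.475 to 1.10) in the mural cluster led by Rgs5 and Gm13889. Within epitenon cells of 6 M DTR the ratio was 0.806 in female and 3.17 in male cells for Ereg, and 0.626 and 6.25 for Areg. The male Areg value rests on 13 counts in 6 M WT and 137 in 6 M DTR. In 6 M WT, 43 epitenon cells of the cluster led by Clic5 gave 110 of 173 Areg counts and 224 of 573 Ereg counts. Outside that cluster the Areg ratio of the sexes together was 1.73 (1.25 to 2.42). For Areg in 21 M B6 the ratio was 0.177 in tenocytes and 0.37 in macrophages against 2.27 in T cells. The tenocyte value rests on 11 counts in 21 M B6, and its interval was below 1 in 3 of 6 tenocyte clusters. For Egfr in 6 M DTR the ratio was 1.23 in tenocytes and 0.552 in macrophages.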

How the results depend on the processing

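No paired analysis was possible because each group is 1 library and no replicate numbers pair them. All 4 tenocyte results kept their direction under every alternative run on the pooled class, but Ereg in 6 M DTR had a ratio above 1, from 1.03 to 1.97, inside each of 6 tenocyte clusters. In tenocyte subsets gated by markers that ratio was below 1, except in acute-phase tenocytes (1.01). The log2 ratios were as follows. Hbegf in 6 M DTR was 0.73 and became 0.69 in clusters without integration, 0.68 with a wider range of genes per cell, 0.62 with TMM factors, 0.85 in female cells and 0.67 when thinned. Hbegf in 21 M B6 was 0.76 and became 0.70 in Seurat clusters, 0.64 at a 5% mitochondrial limit and 0.71 with a wider range of genes per cell. It was 0.98 with TMM factors, 0.82 in female and 0.70 in male cells, 0.85 as a mean over cells and 0.83 when thinned. It was 0.87 without 6 clusters that had more markers of another class than of their own among 10 leading genes. Of these, the Kera and Mmp3 cluster was left out for Chodl alone. As 96.7% of its 875 cells were gated as tenocytes, this alternative also removed a tenocyte cluster. Ereg in 6 M DTR was -0.36 and became -0.47 with TMM factors, -0.036 in male cells, -0.42 when thinned and -0.58 without those clusters. Ereg in 21 M B6 was -2.01 and became -1.74 at the 5% limit, -1.80 with TMM factors, -2.16 in male cells, -1.87 as a mean over cells and -2.35 without those clusters.

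Pathway genes past 2-fold went from 3 to 1 in 6 M DTR tenocytes, from 1 to 0 in 6 M DTR epitenon cells and from 2 to 1 in 21 M B6 macrophages with a minimum of 20 CPM, which leaves fewer genes. With TMM factors the last 2 counts were also 0 and 1. Of the other members by class, 29 ratios had an interval that left out 1, and 391 of their 402 values under alternatives kept their direction. The 11 that turned were, as log2 ratios, Areg in 6 M DTR tenocytes with a wider range of genes per cell (-0.090), Erbb3 in 21 M B6 epitenon cells when thinned (-0.031), Hbegf in 21 M B6 endothelial cells as a mean over cells (-0.076), and Areg in 21 M B6 T cells at the 5% limit (-0.043, with 9 cells left) and in male cells (-0.47). In female cells Ereg (-0.31) and Areg (-0.68) in epitenon cells, Ereg in mural cells (-0.23) and Tgfa in tenocytes (0.087) turned in 6 M DTR. In male cells Ereg in 21 M B6 epitenon cells (0.34) and Btc in 6 M DTR Schwann cells (-0.47) turned, the last from 30 and 8 cells. The cause was not tested. Leaving out cells that passed 2 gates, leaving out clusters with more markers of another class than of their own, and splitting by cluster were chosen after seeing the data.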

Other observations

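Counts summed over all cells of a library gave an Ereg level of 115 CPM in 6 M WT, 79.0 for 6 M DTR and 23.2 for 21 M B6, and an Egfr level of 51.4, 55.0 and 87.6 CPM. Tenocytes held 91.2% of the Ereg counts of 6 M WT, 71.6% of those of 6 M DTR and 30.9% of those of 21 M B6, while epitenon cells held 4.39%, 13.3% and 43.9%. Epitenon cells also held 68.3% of the Egfr counts of 21 M B6, against 23.1% in 6 M WT. In the 21 M B6 library 27.4% of Btc counts lay in the cluster led by Clic5, Col22a1 and Bglap2, at 38.9 CPM, against 11.0% in 6 M WT and 3.59% in 6 M DTR.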
